A study of Homo sapiens with 6 samples.

Results

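The sirtuins are the NAD+-dependent branch of the protein deacylases, and the 7 mouse genes Sirt1 to Sirt7 were taken by name from the deposited expression table. All 7 were among its 22413 genes, and all 7 were among the 12163 genes that were compared. The RNA came from BaF3-T315I, a murine BaF3 line stably transfected with BCR-ABL carrying the T315I mutation, which both groups share. One group of 3 samples was the control, whose time and vehicle the labels do not give. The other 3 samples had been treated with 1.1 µM I13 for 48 h, a time taken from a figure legend of the work, since the labels give none. I13 is an indole-3-butyric acid derivative that the study describes as an inhibitor of the histone deacetylases HDAC1 and HDAC3. The labels call the samples human, but the gene identifiers are those of mouse, and the values were read as mouse genes. Nothing states that the samples were separate cultures, so the p-values measure only the spread between these samples.

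Sirtuins remove acetyl and longer acyl groups from lysines and use up 1 molecule of NAD+ each time, which ties them to the metabolic state of the cell. The classical histone deacetylases, by contrast, use a zinc ion. Sirt1, Sirt6 and Sirt7 are nuclear enzymes that act on chromatin and on transcription factors, Sirt2 is mainly cytosolic, and Sirt3, Sirt4 and Sirt5 are mitochondrial. Sirtuins have been studied in chronic myeloid leukemia mainly through Sirt1, which deacetylates p53.

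The libraries held 16762119 to 17722950 fragments, so depth differed little. The markers of the line were mixed. Of 12 markers listed for BaF3 cells, 10 were found in the table and the others were not analysed here. Of the 10, Ptprc, Il3ra, Csf2rb, Csf2rb2, Cd79a and Cd79b were present, while the pro-B genes Ebf1, Pax5, Vpreb1 and Igll1 stayed under 1 FPKM in every sample. The sum of the 10 ran from 472 to 929 FPKM in the control and from 951 to 1699 FPKM after I13. Of 14 markers listed for other cell types, 9 were found in the table, and 6 of these stayed under 1 FPKM throughout. The sum of the 9 was 54.1 to 83.2 FPKM in the control and 87.5 to 125 FPKM after I13, mostly from Adgre1, a macrophage gene (18.1 to 76.7 FPKM over all samples), and Pecam1 (35.5 to 45.9 FPKM). With the replicate block, Csf2rb, Csf2rb2, Adgre1 and the globin gene Hba-a1 were called higher after I13 (limma, adjusted p from 0.0308 to 0.0384), and without it they were not. Their part in the sirtuin values was not tested, and in a bulk sample fewer cells with a transcript and less of it per cell cannot be told apart.

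None of the 7 sirtuin genes was called elevated or decreased after I13. A gene was called where its adjusted p was below 0.05 and its log2 fold change was 0.58 or more in size, and limma on log2(FPKM + 0.1) called 0.0411% of all genes tested in this way. Sirt6 and Sirt5 were the members with the largest log2 fold changes, -0.36 and -0.33, and the only ones whose control and I13 samples did not overlap. Sirt1, Sirt2 and Sirt3 lay slightly above the control, and Sirt4 and Sirt7 slightly below it. The adjusted p of the 7 genes ran from 0.179 for Sirt6 to 0.922 for Sirt2. Sirt6 alone, 1 of the 7, had an unadjusted p below 0.05, which is 14.3% of the family against 18.6% of all genes tested. Of all genes tested, 10.8% were lower after I13 at that limit. With the replicate number as a block, which called 1.89% of all genes, the count of sirtuins remained 0. Voom on recovered fragments likewise called 0 sirtuins without and with the block, and with the block it called 4.14% of all genes tested. In both voom fits 2 sirtuins, Sirt5 and Sirt6, had an unadjusted p below 0.05. So had 2356 of the 12163 genes tested without the block and 3743 with it.

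**Figure D1:**
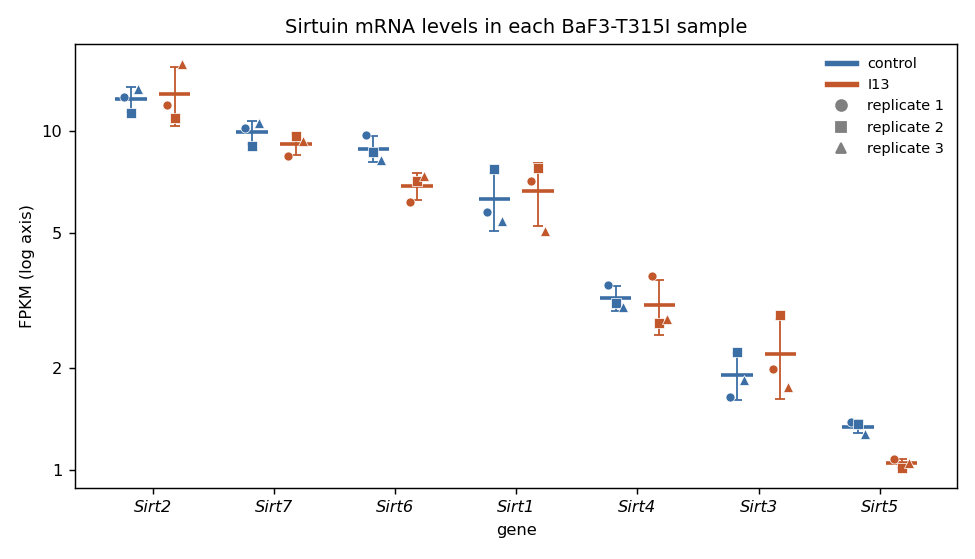
The FPKM of each sirtuin gene (log axis) in the 3 control and the 3 I13 samples, with symbols for the replicate number, thick bars for the group mean and thin bars for ±1 SD. Sirt2 lay highest and Sirt5 lowest in both groups, and the control and I13 points are apart for Sirt6 and Sirt5 only.

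The sirtuin transcripts were of low to middle abundance in BaF3-T315I cells. FPKM is a level per gene length, so the order of the members depends on the lengths used. The recovered lengths were 2398 bases for Sirt4 and 2785 for Sirt6, against 5973 for Sirt3 and 5331 for Sirt1. Sirt4 had fewer control fragments than Sirt3, 410 against 605, and Sirt6 fewer than Sirt1, 1311 against 1782. Whether these lengths match the transcripts of these cells was not tested. In the control the order was Sirt2, Sirt7, Sirt6, Sirt1, Sirt4, Sirt3 and Sirt5, from 12.5 ± 1.03 FPKM for Sirt2 down to 1.34 ± 0.0602 FPKM for Sirt5 (SD, n = 3 each). The order of the means was the same after I13, from 12.9 ± 2.55 FPKM for Sirt2 to 1.05 ± 0.0310 FPKM for Sirt5 (SD, n = 3 each). In the control the only neighbours whose ranges overlapped were Sirt7 and Sirt6. After I13 the ranges of Sirt6 and Sirt1 overlapped, as did those of Sirt4 and Sirt3. By mean FPKM over the 6 samples, Sirt2 stood at the 64.9th percentile of the genes tested and Sirt3 at the 21.0th, with Sirt5 lower still. For comparison on the same scale, the zinc enzyme Hdac1 was at 31.8 ± 2.27 FPKM in the control (SD, n = 3), above every sirtuin.

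Sirt6 is a chromatin-bound deacylase that takes part in DNA repair and in the repression of glycolytic genes. It was measured at 9.75, 8.70 and 8.21 FPKM in controls 1 to 3, whereas I13 samples 1 to 3 had 6.19, 7.13 and 7.38 FPKM. Every I13 sample lay below every control sample. Such a pattern, lower with no overlap, was seen in 2 of the 7 sirtuins and in 15.4% of all genes tested. The mean was 8.88 ± 0.784 FPKM in the control and 6.90 ± 0.627 FPKM after I13 (SD, n = 3 each). The log2 fold change was -0.36 (standard error 0.12, 95% interval -0.63 to -0.09), or 0.779 of the control level, with an adjusted p of 0.179 from limma. These values rested on 1311 control fragments and 997 fragments after I13. The closest samples of the 2 groups, control replicate 3 (exact Poisson 95% interval 7.43 to 9.05 FPKM, counting error only) and I13 replicate 3 (6.64 to 8.19 FPKM), overlapped in counting error. The difference was widest in the first pair of same-numbered samples, at -0.65 on the log2 scale, against -0.28 and -0.15 in the others, and the blocked fit without pair 1 gave -0.22. Without control replicate 1 the unadjusted p of Sirt6 was 0.0617 and without I13 replicate 1 it was 0.0658.

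Sirt1 deacetylates histones, p53 and FOXO factors. Its values were 5.77, 7.73 and 5.43 FPKM in controls 1 to 3, whereas I13 samples 1 to 3 had 7.14, 7.78 and 5.08 FPKM. The groups overlapped almost completely, and replicate 2 was high and replicate 3 low in both. I13 over control gave a log2 fold change of 0.07 (standard error 0.20, 95% interval -0.40 to 0.54, adjusted p = 0.873 from limma). The counting interval of control replicate 2 (exact Poisson, 95%, 7.18 to 8.32 FPKM) lay wholly above that of control replicate 1 (5.29 to 6.27 FPKM).

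Sirt7 is the nucleolar member and is known for promoting transcription of ribosomal RNA genes. It was at 10.2, 9.06 and 10.6 FPKM in controls 1 to 3, whereas I13 samples 1 to 3 had 8.45, 9.66 and 9.40 FPKM. Control replicate 2 lay within the range of the I13 samples. The log2 fold change of -0.12 had the smallest standard error of the family, 0.11 (95% interval -0.37 to 0.13, adjusted p = 0.592 from limma).

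Sirt2, which removes acetyl groups from alpha-tubulin in the cytosol, was the most abundant sirtuin transcript. It was at 12.7, 11.3 and 13.4 FPKM in controls 1 to 3, whereas I13 samples 1 to 3 had 11.9, 11.0 and 15.8 FPKM. Replicate 3 was the highest and replicate 2 the lowest in both groups, whereas in Sirt1 replicate 2 was the highest and replicate 3 the lowest. Between the groups the log2 fold change was 0.04 (standard error 0.15, 95% interval -0.32 to 0.39, adjusted p = 0.922 from limma).

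Of the mitochondrial members, Sirt5, which removes succinyl, malonyl and glutaryl groups, had the lowest FPKM and the smallest spread between replicates, a spread within counting error. It was at 1.39, 1.37 and 1.28 FPKM in controls 1 to 3, whereas I13 samples 1 to 3 had 1.08, 1.02 and 1.05 FPKM. All I13 samples lay below all control samples, as for Sirt6. The log2 fold change was -0.33 (standard error 0.18, 95% interval -0.76 to 0.10, adjusted p = 0.378 from limma). On this scale the pseudocount of 0.1 shrinks the change of so low a gene, and on the recovered fragments with voom it was -0.35, while a pseudocount of 1 gave -0.19. The gene rested on 104 to 150 fragments a sample, and the intervals of control replicate 3 (1.07 to 1.51 FPKM) and I13 replicate 1 (0.893 to 1.30 FPKM) overlapped in counting error.

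Sirt3, the main deacetylase of the mitochondrial matrix, was at 1.64, 2.24 and 1.85 FPKM in control replicates 1, 2 and 3. It was at 1.99, 2.87 and 1.76 FPKM in I13 replicates 1, 2 and 3, so the groups overlapped and replicate 2 was the highest in both. For Sirt3 the log2 fold change was 0.18 (standard error 0.22, 95% interval -0.34 to 0.70, adjusted p = 0.701 from limma). Sirt4, which restrains glutamate dehydrogenase, was at 3.53, 3.12 and 3.03 FPKM in controls 1 to 3, whereas I13 samples 1 to 3 had 3.74, 2.71 and 2.79 FPKM. Replicate 1 was the highest in both groups. For Sirt4 the log2 fold change was -0.08 (standard error 0.16, 95% interval -0.45 to 0.30, adjusted p = 0.828 from limma).

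**Figure D2:**
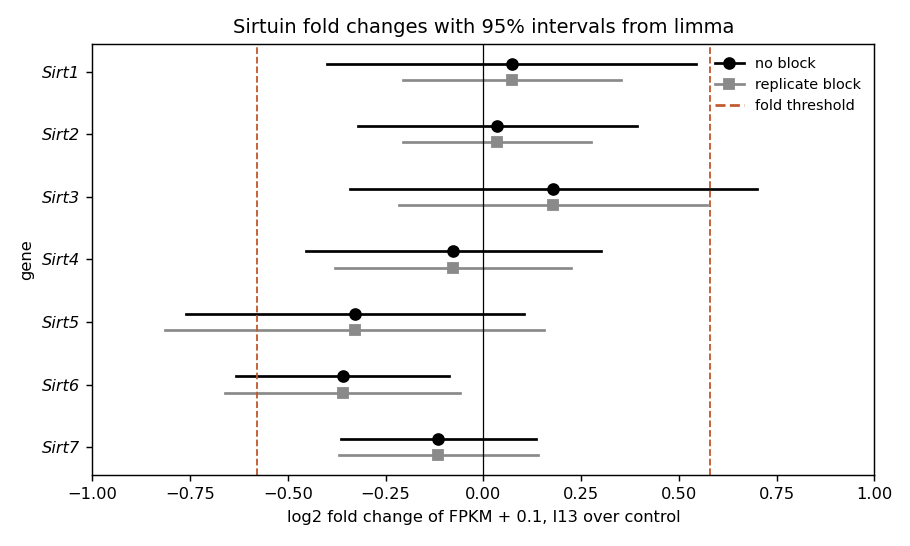
The log2 fold change of each sirtuin (x axis, I13 over control, of FPKM + 0.1) with its 95% interval from limma, without a block (black circles) and with the replicate block (grey squares), and dashed lines at ±0.58. The interval of Sirt6 alone leaves out 0 in both fits, and all intervals stay between -1 and 1.

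An adjusted p above 0.05 does not show that a transcript did not change, so the intervals set the limits. In the fit without the block, the 95% intervals of Sirt1, Sirt2, Sirt4 and Sirt7 lay wholly within ±0.58 on the log2 scale. Those of Sirt3, Sirt5 and Sirt6 reached past it. With the block the interval of Sirt3, -0.21 to 0.57, also lay within it. All 7 intervals left out a log2 fold change of 1 in either direction, a doubling or a loss of the same factor. The intervals are for single genes and are not adjusted for their number. They also depend on the fit. That of Sirt5 left out 0 with eBayes without a trend and in both voom fits.

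**Figure D3:**
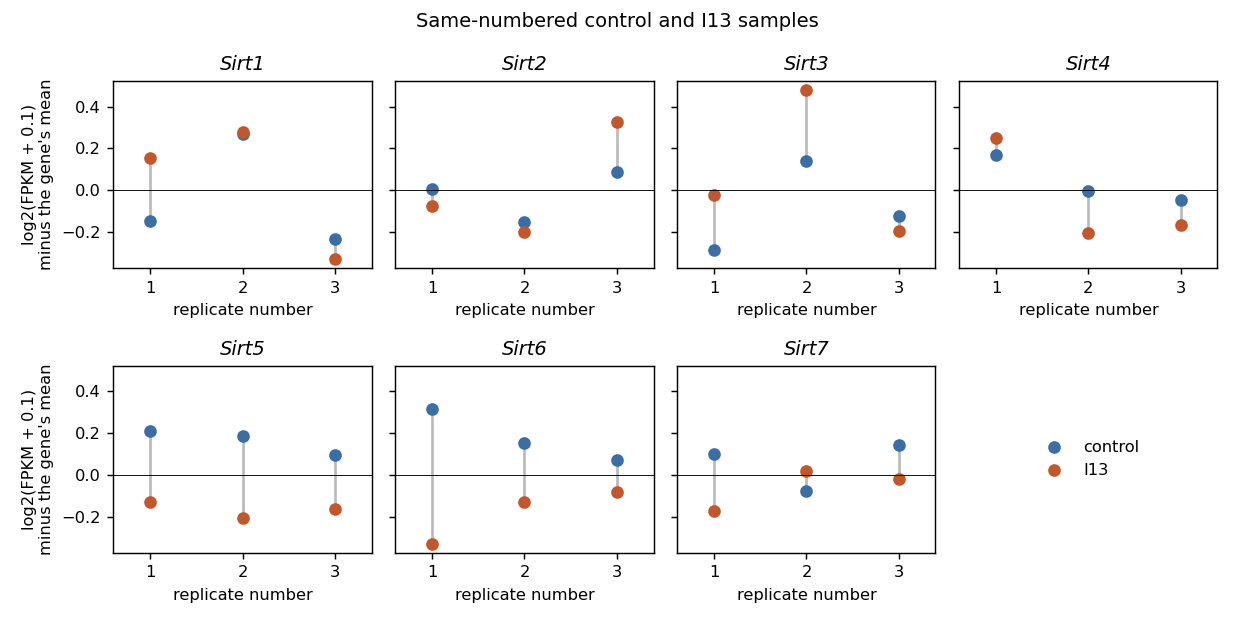
The log2(FPKM + 0.1) of each sirtuin minus its mean over the 6 samples (y axis), by replicate number (x axis), with a grey line from the control (blue) to the I13 sample (orange) of the same number. Sirt1, Sirt2, Sirt3 and Sirt4 move with the replicate number, whereas in Sirt5 and Sirt6 the I13 sample is the lower in 3 of 3 pairs.

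The sirtuins differed in how far they varied with the replicate number and with the condition. Of the sum of squares of log2(FPKM + 0.1), 85.9% lay between the replicate numbers for Sirt1, 81.5% for Sirt2, 75.1% for Sirt3 and 81.5% for Sirt4, and between 1.05% and 12.5% lay between control and I13. For Sirt5 and Sirt6, 94.0% and 74.6% lay between control and I13. Within each group, every Sirt5 value lay inside the counting intervals of the other samples, so its small spread cannot be read as a trait of the gene. How far low counts shaped its share was not tested. For Sirt7, 52.7% lay with neither. Over all genes tested the medians were 42.2% between the replicate numbers, on 2 degrees of freedom, and 25.9% between the conditions, on 1. More lay between the numbers than between the conditions in 4 of the 7 sirtuins and in 59.5% of all genes tested. Such a difference between members was thus not particular to the family. What the replicate numbers stand for is not stated in the labels. The block narrowed the standard errors of Sirt1 from 0.20 to 0.11 and of Sirt2 from 0.15 to 0.10, and widened those of Sirt5 and Sirt6 slightly, to 0.19 and 0.12. The adjusted p with the block was 0.131 for Sirt6, 0.318 for Sirt5 and 0.704 for Sirt1, and 2.99% of all genes were below 0.05 in that fit.

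Summed over the 7 genes, sirtuin transcripts came to 45.0, 43.6 and 43.7 FPKM in controls 1 to 3, whereas I13 samples 1 to 3 had 40.6, 42.1 and 43.3 FPKM. These sums did not overlap, but control replicate 2 and I13 replicate 3 lay close together. Of single genes tested, 15.4% were lower with no overlap, and no such share was made for sums of genes. The mean sum was 44.1 FPKM in the control and 42.0 FPKM after I13, while Sirt6 alone went from 8.88 to 6.90 FPKM. By log2 fold change, 3 members lay above the control and 4 below it. The nuclear members contributed 25.1 ± 0.829 FPKM in the control and 22.7 ± 1.59 FPKM after I13 (SD, n = 3 each), or 57.0% and 54.2% of the sum. The mitochondrial members contributed 6.48 ± 0.295 and 6.34 ± 0.649 FPKM (SD, n = 3 each), or 14.7% and 15.1%. Sirt6 went from 20.1% ± 1.45 to 16.4% ± 1.00 of the sum, and Sirt2 from 28.3% ± 2.27 to 30.7% ± 5.35 (SD, n = 3 each). No test was made on these sums.

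The genes around the sirtuins were counted in the same fit. Of the 95 tested genes of the 7 related lists, limma called 0 without the block, against 0.0411% of all genes tested. With the block it called 1, Ccar2, against 1.89% of all genes tested. Voom on recovered fragments with the same block, which called 4.14% of all genes, called 5 of the 95, namely Ccar2, Dyrk3, Nadk2, Rb1 and Esco2, the last of which was named after its values were seen. Ccar2 encodes DBC1, a protein that binds and inhibits Sirt1. Ccar2 was at 27.7, 27.6 and 23.8 FPKM in controls 1 to 3, whereas I13 samples 1 to 3 had 18.6, 18.3 and 15.6 FPKM, with no overlap and a log2 fold change of -0.59 (standard error 0.11). Its adjusted p was 0.105 from limma without the block, where it was not called, and 0.0383 with the block, where it was. In the blocked fit its adjusted p was 0.0634 without pair 1, 0.291 without pair 2 and 0.0836 without pair 3, with log2 fold changes of -0.60, -0.59 and -0.58.

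Rps19bp1, which encodes the Sirt1 activator AROS, was also lower in every I13 sample. It was at 33.7, 31.5 and 28.8 FPKM in controls 1 to 3, whereas I13 samples 1 to 3 had 21.5, 21.1 and 25.7 FPKM. Its log2 fold change of -0.46 had a standard error of 0.11 and a limma adjusted p of 0.120, or 0.0794 in the blocked fit. Dyrk3, a kinase that phosphorylates Sirt1, was at 5.05 ± 0.337 FPKM in the control and 8.43 ± 2.11 FPKM after I13 (SD, n = 3 each), which was a log2 fold change of 0.70 (adjusted p = 0.131 from limma). Dyrk3 was called by voom with the block, at 0.73 and an adjusted p of 0.0329. Of the 11 regulators tested, 2 were higher and 3 lower at an unadjusted p below 0.05, or 45.5% of the list against 18.6% of all genes tested, of which 7.79% were higher and 10.8% lower. The median log2 fold change of the list was -0.03 against -0.005 over all genes tested. Higher after I13 with no overlap were 2 of these 11 genes, against 9.82% of all genes tested. Lower with no overlap were 3 of the 11, against 15.4% of all genes tested.

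**Figure D4:**
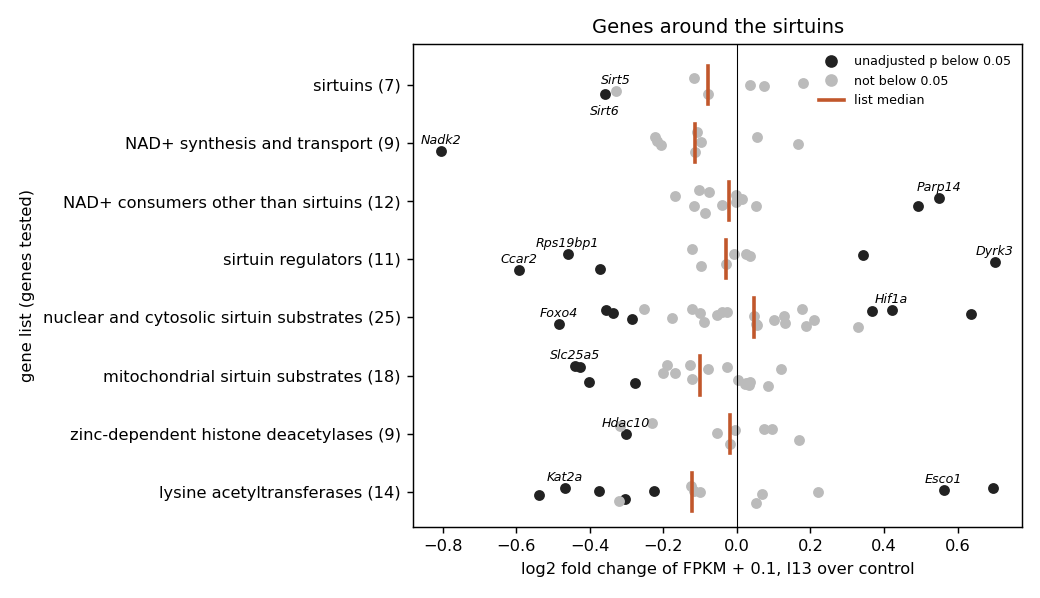
The log2 fold change (x axis, I13 over control, of FPKM + 0.1) of every tested gene of the sirtuins and of 7 related lists (rows, number of genes in brackets), in black where the unadjusted p was below 0.05, with an orange bar at each list's median. The medians lie between -0.12 and 0.05, and Ccar2 and Rps19bp1 lie at -0.59 and -0.46.

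The supply of NAD+ was represented by 9 tested genes of its synthesis and transport, of which 0 were called. Only 1 was below an unadjusted p of 0.05, or 11.1% of the list against 18.6% of all genes tested. That gene was Nadk2, the mitochondrial NAD kinase, at 0.843 ± 0.165 FPKM in the control and 0.447 ± 0.149 FPKM after I13 (SD, n = 3 each), and its log2 fold change was -0.80 (adjusted p = 0.267 from limma). Its size depended on the pseudocount, at -0.35 with a pseudocount of 1, and voom with the block called it, at -0.91 and an adjusted p of 0.0390. Nmnat3 and Nadk followed by p, with log2 fold changes of -0.22 and -0.11. Nampt, the rate-limiting enzyme of NAD+ salvage, had a log2 fold change of 0.05, and its groups overlapped. Of 12 other enzymes that consume NAD+, 0 were called, and 16.7% were below an unadjusted p of 0.05 against 18.6% of all genes tested. These were Parp9 and Parp14, with log2 fold changes of 0.49 and 0.55. Both were higher after I13, as were 7.79% of all genes tested at that limit. Parp10 followed at -0.17. Parp1, the main poly(ADP-ribose) polymerase, had a log2 fold change of -0.04.

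Among the proteins listed as sirtuin substrates or partners, 25 nuclear and cytosolic and 18 mitochondrial ones were tested, and limma called 0 without or with the block. At an unadjusted p below 0.05, 3 of the nuclear and cytosolic ones were higher and 4 lower, or 28.0% of the list against 18.6% of all genes tested. The lowest p of these were those of Foxo4 (log2 fold change -0.48), Hif1a (0.42) and Rb1 (0.64), and their adjusted p ran from 0.109 to 0.126 in limma. Rb1 was called by voom with the block, at 0.64 and an adjusted p of 0.0178. Of the mitochondrial ones, 0 were higher and 4 lower at an unadjusted p below 0.05, or 22.2% against 18.6% of all genes tested. The share lower at that limit was 10.8% of all genes tested. Lower with no overlap were 6 of these 18, against 15.4% of all genes tested. Higher with no overlap were 0, against 9.82%. Slc25a5, an ADP/ATP carrier of the inner membrane, was at 352 ± 15.7 FPKM in the control and 259 ± 8.50 FPKM after I13 (SD, n = 3 each). This was a log2 fold change of -0.44 with a limma adjusted p of 0.0989, or 0.0447 in the blocked fit, and below the fold change threshold. Ndufa9, a subunit of respiratory complex I, and Mlycd, malonyl-CoA decarboxylase, followed with log2 fold changes of -0.40 and -0.43 and with adjusted p of 0.113 and 0.157 from limma.

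The zinc-dependent histone deacetylases, the family that I13 is described to inhibit, were tested in 9 members. Of these 0 were called, 3 had a log2 fold change above 0 and 6 below it, and the median was -0.02, beside a median of -0.08 in the sirtuins. Without the block, Hdac10 alone was below an unadjusted p of 0.05, with a log2 fold change of -0.30. That is 11.1% of the list, against 18.6% of all genes tested. With the block, Hdac10 and Hdac3 were below it (limma, unadjusted p = 0.0275 and 0.0459), as were 3409 of the 12163 genes tested. Lower with no overlap were Hdac3 and Hdac4, 2 of the 9, against 15.4% of all genes tested. Hdac4 had a log2 fold change of -0.32 (adjusted p = 0.276 from limma). Hdac3 had a log2 fold change of -0.23 (adjusted p = 0.295 from limma), and Hdac1 and Hdac2 had -0.05 and 0.07. A difference between the 2 families was not tested.

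Lysine acetyltransferases, which add the groups that deacetylases remove, were represented by 14 tested genes. None was called, while 2 were higher and 5 lower at an unadjusted p below 0.05, which is 50.0% of the list against 18.6% of all genes tested. Kat2a, known as GCN5, was at 46.1, 52.2 and 44.3 FPKM in controls 1 to 3, whereas I13 samples 1 to 3 had 31.6, 37.9 and 33.6 FPKM. Its log2 fold change of -0.47 had an adjusted p of 0.115 from limma, and of 0.0440 with the block, under the fold change threshold. Kat5, known as TIP60, had a log2 fold change of -0.54 and Esco1, which acetylates cohesin, of 0.56, both with an adjusted p of 0.113 from limma. Esco2, the other cohesin acetyltransferase, was at 0.70 with an adjusted p of 0.120 from limma, and was called by voom with the block.

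The genes most like each sirtuin over the 6 samples were found from the root mean square difference of their log2(FPKM + 0.1) values, each centred on its own mean, among the 10870 genes with a mean of at least 1 FPKM. Alg3 was nearest to Sirt7, at a difference of 0.013, Hmgxb3 to Sirt5, at 0.017, and Mrpl42 to Sirt1, at 0.020. Mrpl42 rose and fell with the replicates as Sirt1 did, at 24.1, 32.1 and 23.1 FPKM in controls 1 to 3, whereas I13 samples 1 to 3 had 30.2, 33.4 and 21.1 FPKM. Among the 3 nearest to Sirt6 were Hsf1, at 0.036, and Npepl1, at 0.040, with log2 fold changes of -0.39 and -0.37. Ubap1 was nearest to Sirt2, Cep152 to Sirt3 and Clcn6 to Sirt4, at 0.046 to 0.050. With 6 samples of 1 line, such likeness is a description of these libraries only.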

How the data were processed

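mRNA of 3 control and 3 I13-treated samples was sequenced from stranded libraries. The authors deposited FPKM, fragments scaled to gene length and library size, for 22413 genes, with replicates unpooled and no scaling between samples stated. Per the labels, the processing notes name Trimmomatic, HISAT2, Cufflinks, HTSeq and hg38, while the genes are mouse. No versions are given in the sources used here. Every column was matched to a sample through the labels.

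The sirtuins and gene lists were chosen with earlier results of these data known. FPKM were compared as log2(FPKM + 0.1) with limma 3.58.1 in R 4.3.3 (eBayes with a trend, Benjamini-Hochberg adjustment) in the 12163 genes with a mean of at least 0.5 FPKM. A call needed an adjusted p below 0.05 together with a log2 fold change of 0.58 or more in size. The genes named are the sirtuins, Hdac1 to Hdac3, the 3 genes with the lowest p in each list, any called with or without the block, and genes from the 3 nearest patterns of each sirtuin, not all of which are printed. One gene of those patterns is not reported here. Nampt and Parp1 were added after their values were seen. For all 22413 genes a whole gene length was found at which every FPKM lay within 0.03 of a whole number of fragments. Alternatives were other pseudocounts, filters, scalings, limma settings, voom on these fragments, the replicate block, and each sample or pair left out. The fits were checked on simulated data.

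Replicate numbers were taken to pair the samples, since the deviations from the group means of same-numbered samples correlated at 0.145, 0.301 and 0.219 across genes, each above 0.1, against -0.258 to 0.05 for the others. Deviations from a group mean cancel within the group, so low values for the others follow in part from those of the same-numbered samples. The pairing was judged on the same values that the blocked fits used, so it is no separate evidence for their calls. The replicate numbers come from the labels. Figures were drawn with matplotlib 3.10.9. No mouse sequences or coordinates were used here.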

Additional observations from a re-analysis of the deposited data

How the results depend on the processing

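No setting called a sirtuin, and the lowest adjusted p of any of them was 0.0872, for Sirt6 with voom on recovered fragments and the replicate block. Of 133 comparisons of single sirtuins under 19 alternatives, 127 kept direction and call and 6 changed direction, all with 1 sample left out. The kept calls say little. The limma test against a log2 fold change of 0.58 (treat) called 0 of the 12163 genes tested. So did each fit with 1 sample left out, so no sirtuin could gain a call there. Under these alternatives the sirtuin log2 fold change largest in size was -0.41, for Sirt6, short of the 0.58 that a call needed. Under the 13 alternatives that kept all samples, the direction of every sirtuin held, with Sirt6 from -0.36 to -0.32 and Sirt5 from -0.40 to -0.19. With 1 sample left out, the log2 fold change of Sirt1 ran from -0.049 to 0.25, of Sirt2 from -0.12 to 0.14, of Sirt3 from -0.017 to 0.32, of Sirt4 from -0.22 to 0.0040, of Hdac1 from -0.099 to 0.000683 and of Hdac2 from -0.022 to 0.22. Sirt6 ran from -0.41 to -0.28, with an unadjusted p below 0.05 in 4 of 6. In the fit with the replicate block, leaving out a pair, chosen after seeing the data, gave Sirt1 -0.043 and Hdac2 -0.043 without pair 1, and Sirt2 -0.066 without pair 3. Among the sirtuins and the related lists, the block changed the call of Ccar2 in limma and of no sirtuin, and voom with the block called Ccar2, Dyrk3, Nadk2, Rb1 and Esco2. Over all genes, 4 were elevated and 1 decreased without the block, 166 and 64 with it, and 375 and 128 with voom and the block. The cause was not tested. Depth limits Sirt4 and Sirt5 most, with 104 to 158 fragments a sample.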
